A study of Homo sapiens with 6 samples.

Results

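This report describes 49 genes of the cell cycle in IMR90 cells, a widely used strain of primary human fetal lung fibroblasts, after depletion of the histone variant macroH2A1. The 49 genes were chosen by symbol from common proliferation markers and were matched to 49 Ensembl identifiers among the 57659 genes in the deposited counts. They divide by textbook role into 19 genes of DNA replication and the entry into S phase and 30 genes of mitosis. The study holds 2 groups of 3 libraries: cells expressing a short hairpin RNA against macroH2A1 (knockdown) and cells with a hairpin against luciferase, an insect enzyme with no target in these cells (control). All libraries came from IMR90 cells grown in serum-containing medium, and both groups carry a hairpin. The number of hairpin sequences, the passage of the cells and the density of the cultures are not stated in the labels. The series calls the libraries of a group biological replicates. The labels do not say whether a replicate was a separate infection or a separate dish, so p-values measure the spread between these libraries.

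The cell cycle is driven by waves of transcription. In the first wave, E2F factors, freed from the retinoblastoma family of proteins, turn on genes whose products license origins, unwind DNA and supply nucleotides. In the second wave, the MuvB core with MYBL2 and FOXM1 turns on genes of spindle assembly, chromosome segregation and cytokinesis, and in resting cells the same core, bound to p130 as the DREAM complex, keeps both sets of genes low. These genes serve as markers of the share of dividing cells in cultured fibroblasts. In RNA from a whole culture, a smaller share of cycling cells and less RNA per cycling cell cannot be told apart.

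MACROH2A1, the targeted gene, gave 582, 385 and 321 reads in the control and 197, 201 and 149 in the knockdown, which left 46.3% of the control level (edgeR adjusted p = 0.000917). Libraries held 3741087 to 6421605 reads assigned to genes, where 3 reads correspond to 0.467 to 0.802 CPM, the reads of a gene per 1000000 reads after scaling. The share of mitochondrial reads was 7.83% to 8.85% in the control and 5.78% to 6.64% in the knockdown, and the share of reads without a unique alignment was 67.6% to 68.8% and 64.4% to 66.6%. Of 12 fibroblast markers, 11 were tested and 4 rose in the knockdown (36.4%, where 3.90% of all genes were called higher). The summed level of the 12 was 10787 to 12522 CPM in the control and 14595 to 16143 in the knockdown. The 10 epithelial markers summed to 27.4 to 29.7 CPM in the control and 7.52 to 11.8 in the knockdown, nearly all from KRT18 and KRT8, while EPCAM had 7 counts and CDH1 2 counts over all 6 libraries, and SFTPB and SCGB1A1 were at 0. The 6 endothelial markers summed to at most 1.74 CPM in any library, with PECAM1 at 0, and 7 blood markers to at most 7.75 CPM, mostly CD68, with CD3E at 0. KRT18 fell (24.5 ± 1.54 to 8.19 ± 2.64 CPM, SD, n = 3 per group). The part of these differences in the results below was not tested.

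Promoters of cell cycle genes can carry the sequence elements through which the waves of transcription act, and 3 promoters are shown for members named in the results: KIF20A and CCNB2 from the mitotic genes and GINS2 from the replication genes. Each run covers 250 bases before to 50 bases after the RefSeq start on GRCh38.p14, written 5′ to 3′ along the gene. Capitals mark every match, on either strand, to TTTGAA (the cell cycle homology region, bound by MuvB), CCAAT (bound by NF-Y) and TTTNNCGC (a form of the E2F site).
KIF20A, chr5:138178862-138179161, plus strand: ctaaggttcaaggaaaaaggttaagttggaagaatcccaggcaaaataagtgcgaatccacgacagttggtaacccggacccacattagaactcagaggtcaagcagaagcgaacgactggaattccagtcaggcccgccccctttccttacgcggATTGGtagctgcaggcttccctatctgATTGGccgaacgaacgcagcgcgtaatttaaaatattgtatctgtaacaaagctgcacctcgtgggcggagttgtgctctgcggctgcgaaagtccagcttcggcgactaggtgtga
CCNB2, chr15:59104896-59105195, plus strand: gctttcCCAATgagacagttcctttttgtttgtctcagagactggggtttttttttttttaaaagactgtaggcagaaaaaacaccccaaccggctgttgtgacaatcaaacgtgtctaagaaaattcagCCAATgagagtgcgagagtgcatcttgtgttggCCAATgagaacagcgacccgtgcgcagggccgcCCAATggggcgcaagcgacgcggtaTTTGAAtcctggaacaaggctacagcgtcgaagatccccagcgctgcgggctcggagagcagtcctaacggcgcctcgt
GINS2, chr16:85688905-85689204, minus strand: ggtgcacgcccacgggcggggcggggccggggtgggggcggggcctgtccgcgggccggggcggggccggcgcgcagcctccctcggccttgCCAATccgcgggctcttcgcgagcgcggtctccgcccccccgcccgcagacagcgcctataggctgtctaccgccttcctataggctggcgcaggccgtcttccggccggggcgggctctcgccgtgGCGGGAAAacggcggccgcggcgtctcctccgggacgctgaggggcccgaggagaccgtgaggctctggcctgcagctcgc

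CCNB2 holds TTTGAA with its first base 29 bases before the start, and the nearest of 4 CCAAT matches begins 54 bases before it. KIF20A has 2 CCAAT matches on the reverse strand and no TTTGAA in this window. GINS2 has 1 E2F match on the reverse strand, 31 bases before the start, and 1 CCAAT match. The RefSeq table held a window for 39 of the 49 members. TTTGAA was in 16 of 24 mitotic genes with a window (66.7%), 1 of 15 replication genes (6.67%) and 18.2% of the 27305 genes in the table. TTTNNCGC showed the opposite pattern, with 10 of 15 replication genes (66.7%), 2 of 24 mitotic genes (8.33%) and 8.23% of all genes. CCAAT was in 66.7% and 75.0% of the replication and mitotic genes, against 39.7% of all. A gene with several windows was counted once, as holding a motif if any of them did. Matches to different motifs overlapped in 2 of the 47 windows of members. These matches describe letters in a window and do not show binding.

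Few of the 49 genes were called on depletion of macroH2A1, and the share called higher was near that of all genes. Of 48 tested, KIF20A and BIRC5, both mitotic, were higher in the knockdown and none was lower. That is 4.17% of the tested members, where 8.21% of all 13445 genes were called in either direction, 3.90% higher and 4.31% lower (quasi-likelihood test in edgeR, threshold 0.05 on the p adjusted by Benjamini-Hochberg). At an unadjusted p under 0.05, 4 members were higher and 1 was lower; over all genes these shares were 12.0% and 12.5%. DESeq2 called KIF20A only, where it called 9.55% of all genes (4.73% higher, 4.82% lower), and limma-voom called KIF20A and BIRC5, where it called 9.07%. In the authors' deposited table KIF20A, CCNA2 and BIRC5 had an adjusted p under 0.05 (0.00186, 0.0383 and 0.0388), where 12.0% of its genes did. The other 46 tested members did not pass, and E2F8 had too few counts to test.

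The medians of the replication and the mitotic members lay on different sides of 0. For the 18 tested replication members the median log2 fold change was -0.12, and 8 were positive and 10 negative. For the 30 mitotic members it was 0.13, and 25 were positive and 5 negative. Over all genes tested the median was 0.01 and 50.8% were positive. Replication members ranged from -0.88 for CCNE2 to 0.28 for MCM5, and mitotic members from -0.29 for CENPE to 0.58 for KIF20A. The 16 mitotic genes with TTTGAA in the promoter window had a median of 0.11, and the 8 with a window but no TTTGAA 0.25. The 10 replication genes with TTTNNCGC had a median of -0.05, and the 5 without it -0.20. Genes with the motif of their role thus did not have the larger medians, and the differences were not tested.

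**Figure D1:**
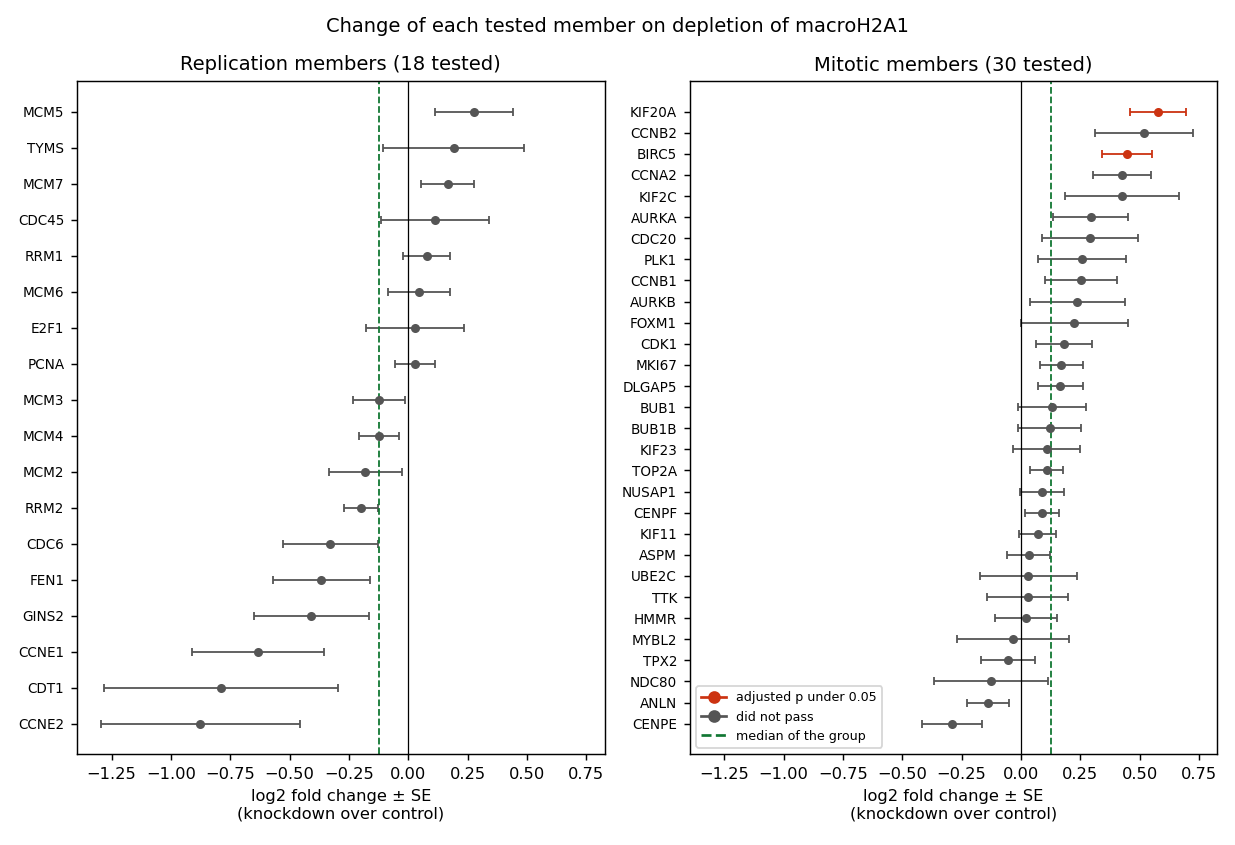
Log2 fold change, knockdown over control, of the 18 tested replication members (left) and 30 mitotic members (right), each with its standard error. The bars of members with few reads, such as E2F1, GINS2 and AURKB, are too short. The dashed line is the median of the group. KIF20A and BIRC5 are the members past the threshold, and 25 of 30 mitotic points lie above 0 against 8 of 18 replication points.

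Among the cyclins and kinase that drive entry into mitosis, all 4 had positive fold changes and none passed. CCNA2, cyclin A2, which acts in S phase and in the entry into mitosis, was at 29.7, 24.5 and 24.3 CPM in the control and 40.0, 32.8 and 32.9 in the knockdown. Every knockdown library was above every control library, by 0.43 on the log2 scale (SE 0.12, edgeR adjusted p = 0.0857). CCNB2, cyclin B2, was at 8.23, 7.55 and 12.4 CPM and at 13.4, 13.7 and 12.9 (log2 fold change 0.52, SE 0.21, edgeR adjusted p = 0.183). The knockdown libraries lay close together, and control replicate 3 came near them without overlap. CCNB1, cyclin B1, the main partner of CDK1, was at 31.5, 39.6 and 44.4 CPM and at 51.4, 45.9 and 39.6, so that the groups overlapped (log2 fold change 0.25, SE 0.15). CDK1 itself was at 15.3, 17.1 and 18.8 CPM and at 19.8, 17.8 and 20.4, again with overlap (log2 fold change 0.18, SE 0.12).

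KIF20A, a kinesin that moves the chromosomal passenger complex to the central spindle for cytokinesis, gave the largest positive fold change of the 48. It was at 25.3, 24.0 and 23.3 CPM in the control and 32.0, 42.2 and 34.3 in the knockdown. The control libraries were nearly equal and all knockdown libraries higher, with replicate 2 the highest. The mean rose from 24.2 ± 1.04 to 36.2 ± 5.33 CPM (SD, n = 3 per group), a 1.49-fold change (log2 fold change 0.58, SE 0.12, edgeR adjusted p = 0.0330). Its call was kept without knockdown replicate 1 (adjusted p = 0.0432) and lost when any of the other 5 libraries was left out. The edgeR adjusted p was then 0.0889, 0.109 and 0.0999 for control replicates 1, 2 and 3, and 0.0664 and 0.0787 for knockdown replicates 2 and 3.

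BIRC5, survivin, is a subunit of the chromosomal passenger complex, which corrects faulty attachments of chromosomes to the spindle. It was at 19.3, 23.3 and 19.6 CPM in the control and 28.5, 29.4 and 26.8 in the knockdown. The mean rose from 20.7 ± 2.25 to 28.2 ± 1.31 CPM (SD, n = 3 per group), 1.36-fold (log2 fold change 0.45, SE 0.10, edgeR adjusted p = 0.0473). That p is close to the threshold, and the call was lost when any 1 library was left out. The edgeR adjusted p was then 0.146, 0.0541 and 0.130 for control replicates 1, 2 and 3, and 0.116, 0.130 and 0.0979 for knockdown replicates 1, 2 and 3, with log2 fold changes between 0.40 and 0.54. AURKB, the kinase of the same complex, was at 4.35 ± 0.401 and 5.11 ± 0.491 CPM (SD, n = 3 per group), and its log2 fold change was 0.24 (SE 0.20).

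No other kinesin among the members passed. KIF2C, which removes tubulin from microtubule ends at kinetochores, was at 15.3, 14.4 and 10.6 CPM in the control and 16.2, 14.4 and 24.4 in the knockdown. The groups overlapped and knockdown replicate 3 was the high library (log2 fold change 0.43, SE 0.24, edgeR adjusted p = 0.329, and 0.18 on the log2 scale without that library). KIF11, which pushes the spindle poles apart, was at 33.7 ± 2.02 and 35.4 ± 1.38 CPM, and KIF23, which bundles microtubules at the central spindle, at 40.0 ± 3.11 and 43.0 ± 7.60 (SD, n = 3 per group). CENPE, the kinesin that carries chromosomes to the spindle equator, had the lowest value of the mitotic members, at 51.4 ± 3.50 and 42.0 ± 6.63 CPM (log2 fold change -0.29, SE 0.13, edgeR adjusted p = 0.213). The ranges of the groups overlapped for KIF11, KIF23 and CENPE.

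All 6 mitotic kinases had positive fold changes, from 0.03 to 0.29 on the log2 scale, and none passed. AURKA, which matures the spindle poles, had the highest fold change of the 6, at 36.8 ± 3.74 CPM in the control and 45.0 ± 9.13 in the knockdown (SD, n = 3 per group). PLK1, which acts from mitotic entry to cytokinesis, was next, at 7.58 ± 1.09 and 9.02 ± 0.935 CPM (SD, n = 3 per group). BUB1 and BUB1B, kinases of the spindle checkpoint, had log2 fold changes of 0.13 and 0.12, and TTK, which starts checkpoint signalling, 0.03. CDC20, the activator of the anaphase promoting complex, was at 11.4 ± 2.61 and 14.0 ± 1.94 CPM (SD, n = 3 per group), and UBE2C, the ubiquitin carrier of that complex, had a log2 fold change of 0.03.

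The mitotic members MKI67, TOP2A, CENPF and ANLN, all with high counts, had small fold changes. MKI67, the proliferation marker Ki-67, which coats mitotic chromosomes, was at 64.4, 63.3 and 53.7 CPM in the control and 69.2, 69.6 and 65.4 in the knockdown. The groups did not overlap, and the gap between them was smaller than the spread within the control (log2 fold change 0.17, SE 0.09, edgeR adjusted p = 0.306). TOP2A, the topoisomerase that untangles sister chromatids, was at 154, 170 and 162 CPM and at 180, 177 and 167, with overlap (log2 fold change 0.11, SE 0.07). CENPF, a kinetochore protein, was at 129 ± 6.68 and 138 ± 5.33 CPM, and ANLN, the scaffold of the contractile ring, at 128 ± 5.20 and 116 ± 10.6 (SD, n = 3 per group). For these genes of high count the standard errors were 0.07 to 0.09 on the log2 scale.

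No spindle assembly factor passed, and the median log2 fold change of the 5 was 0.03. DLGAP5 had a log2 fold change of 0.17, NUSAP1 0.09, ASPM 0.03, HMMR 0.02 and TPX2, which activates AURKA on the spindle, -0.05. NDC80, which joins kinetochores to microtubules, had -0.13 (SE 0.24). FOXM1, a transcription factor of the mitotic genes, was at 6.49, 4.34 and 6.08 CPM in the control and 6.33, 7.61 and 5.89 in the knockdown, with overlap (log2 fold change 0.22, SE 0.23), and MYBL2, its partner on MuvB, had -0.03 (SE 0.24). Neither factor differed beyond the spread of its libraries.

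The E cyclins and the loading factors CDT1 and CDC6 all had negative fold changes, and none passed. CCNE2, cyclin E2, a partner of CDK2, gave 38, 26 and 20 reads in the control and 24, 15 and 4 in the knockdown, or 6.01, 5.94 and 5.29 CPM and 4.75, 3.26 and 1.07. All knockdown libraries were lower, and they ranged more widely than the control libraries did (log2 fold change -0.88, SE 0.42, edgeR adjusted p = 0.260). The value for CCNE2 was -0.52 without knockdown replicate 3 and -1.35 without knockdown replicate 1. CCNE1, cyclin E1, was at 4.27, 6.40 and 3.96 CPM and at 2.97, 3.70 and 2.68 (log2 fold change -0.63, SE 0.28, edgeR adjusted p = 0.221). CDT1, which loads the MCM helicase onto origins, had 16, 15 and 21 counts and 11, 15 and 3, with overlapping CPM values (log2 fold change -0.79, SE 0.49, edgeR adjusted p = 0.383). The value for CDT1 was -0.46 without control replicate 3 or knockdown replicate 3 and -1.24 without knockdown replicate 2. CDC6, its partner in loading, was at 14.2, 13.3 and 14.5 CPM and at 8.70, 14.4 and 10.4, where knockdown replicate 2 lay within the control (log2 fold change -0.33, SE 0.20). The value for CDC6 was -0.16 without knockdown replicate 1 and -0.55 without knockdown replicate 2. CCNE1 was at -0.40 on that scale without control replicate 2.

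The MCM2 to MCM7 genes encode the subunits of one ring, the replicative helicase. They went both ways, with 3 positive and 3 negative fold changes from -0.18 for MCM2 to 0.28 for MCM5 and a median of -0.04. MCM4 had 41.4, 35.9 and 36.5 CPM in the control and 35.6, 33.7 and 35.4 in the knockdown, and MCM5 had 14.1, 19.9 and 16.9 and 18.0, 23.3 and 20.1. The groups of MCM4 did not overlap but nearly touched (log2 fold change -0.12, SE 0.08). GINS2 and CDC45, which join the ring to make it active, had log2 fold changes of -0.41 (SE 0.24) and 0.11 (SE 0.23). GINS2 was at 3.80, 5.03 and 3.44 CPM and at 2.77, 3.26 and 3.21, lower in every knockdown library (edgeR adjusted p = 0.387), with a log2 fold change of -0.24 without control replicate 2.

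PCNA, the sliding clamp of the DNA polymerases, was at 40.2, 35.0 and 40.7 CPM in the control and 39.6, 40.0 and 38.6 in the knockdown. All knockdown values lay within the control range (log2 fold change 0.03, SE 0.08, edgeR adjusted p = 0.893). FEN1, which trims the flaps of Okazaki fragments on PCNA, was at 8.70, 6.86 and 7.93 CPM and at 4.94, 6.74 and 6.70 (log2 fold change -0.37, SE 0.20, edgeR adjusted p = 0.328). The groups of FEN1 did not overlap, with a narrow gap, and its log2 fold change was -0.22 without knockdown replicate 1.

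RRM2 encodes the cell-cycle-regulated subunit of ribonucleotide reductase, which makes deoxynucleotides. It was at 38.9, 38.9 and 35.7 CPM in the control and 32.2, 33.5 and 33.2 in the knockdown. This was the single member lower at an unadjusted p under 0.05 (log2 fold change -0.20, SE 0.07, unadjusted p = 0.0295, edgeR adjusted p = 0.151). RRM1, the large subunit, was at 63.2 ± 2.15 and 66.8 ± 7.72 CPM (SD, n = 3 per group). TYMS, thymidylate synthase, was at 6.80, 7.77 and 8.72 CPM and at 6.33, 12.8 and 7.23, and its log2 fold change of 0.19 became -0.19 without knockdown replicate 2.

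E2F1, the founding activator of the family, was at 3.64, 3.66 and 3.44 CPM in the control and 3.96, 3.26 and 3.75 in the knockdown, with overlapping groups (log2 fold change 0.03, SE 0.21). That SE is too small for so few reads. From counting error alone, the exact 95% interval of the E2F1 ratio, knockdown over control, was 0.676 to 1.54, wider than the SE implies. E2F8, a repressor of E2F target genes, had 9, 2 and 7 counts in the control and 4, 7 and 1 in the knockdown. Its ratio of summed counts, knockdown over control and scaled for depth, was 0.721 with an exact 95% interval of 0.317 to 1.58, which covers counting error only. No difference in E2F8 was detectable at this depth.

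The groups did not overlap for 11 of the 48 tested members (22.9%), where this was so for 30.4% of all genes. KIF20A, BIRC5, CCNA2, CCNB2 and MKI67 were higher, which is 16.7% of the mitotic members against 14.5% of all genes. CCNE2, CCNE1, GINS2, FEN1, RRM2 and MCM4 were lower, which is 33.3% of the replication members against 15.9% of all genes. The mitotic share was near the background. In a separate list of other replication genes, 6 of 47 tested were lower without overlap (12.8%) and 1 was higher (2.13%). The lower share in that list was thus not above that of all genes. No replication member was higher without overlap and no mitotic member lower. Other mitotic genes, again a separate list, went both ways: of 64 tested, 8 were higher without overlap (12.5%) and 5 lower (7.81%). Both shares were below those of all genes.

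**Figure D2:**
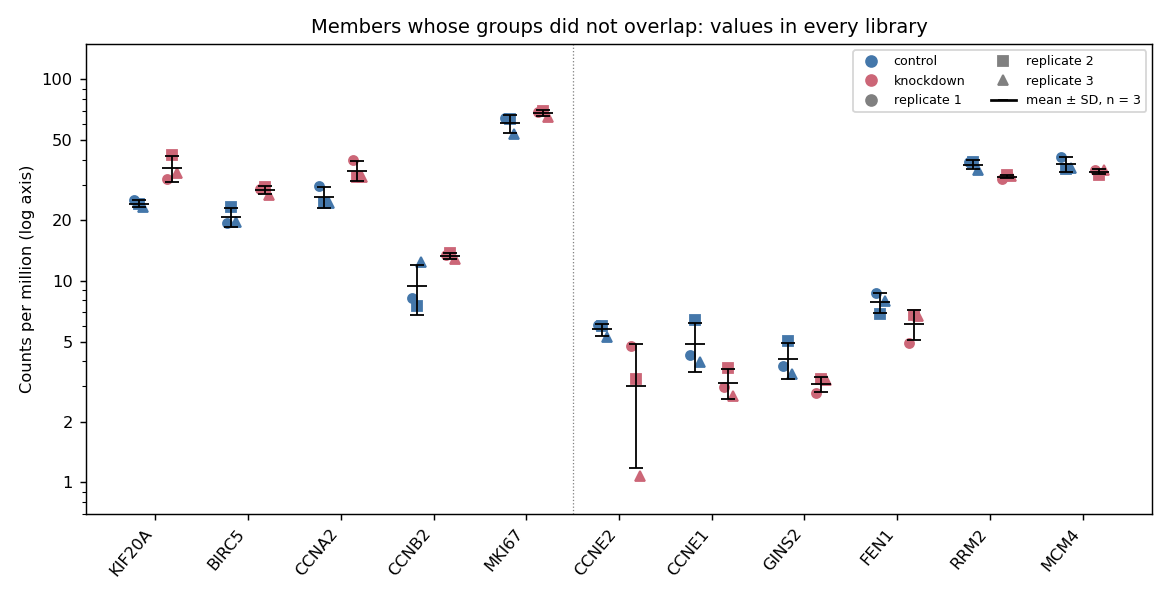
CPM (log axis) of the 11 members whose groups did not overlap, in each control and knockdown library, with the mean and SD of 3 libraries. The 5 mitotic genes on the left are higher in every knockdown library and the 6 replication genes on the right lower, while the gaps for MKI67, FEN1 and MCM4 are narrow.

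The libraries did not contribute equally. For each gene, the deviation of log2(CPM + 0.5) from its mean over the 6 libraries was taken, and then the median over the members. For the mitotic members this was -0.04, -0.03 and -0.05 in the control and 0.11, 0.10 and -0.01 in the knockdown. Knockdown replicates 1 and 2 were thus high, and knockdown replicate 3 lay just above the control. Of the 30 mitotic members, 9 had their highest value in knockdown replicate 1 and 12 in replicate 2, and none had its lowest value there. In knockdown replicate 3, 4 had their highest and 7 their lowest value. Without that library, the median log2 fold change of the mitotic members was 0.18 in place of 0.13.

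For the replication members the median deviations were 0.09, 0.02 and 0.02 in the control and -0.04, 0.00 and -0.10 in the knockdown. Control replicate 1 was the highest and knockdown replicate 3 the lowest, and without control replicate 1 the median log2 fold change was -0.05 in place of -0.12. The summed CPM of the mitotic members was 3.05, 3.17 and 3.03 times that of the replication members in the control and 3.64, 3.32 and 3.27 times in the knockdown. These ratios describe the libraries, and no test was made on them, since the members were chosen as a list. Over all genes tested, the median deviation was between 0.00 and 0.01 in every library.

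**Figure D3:**
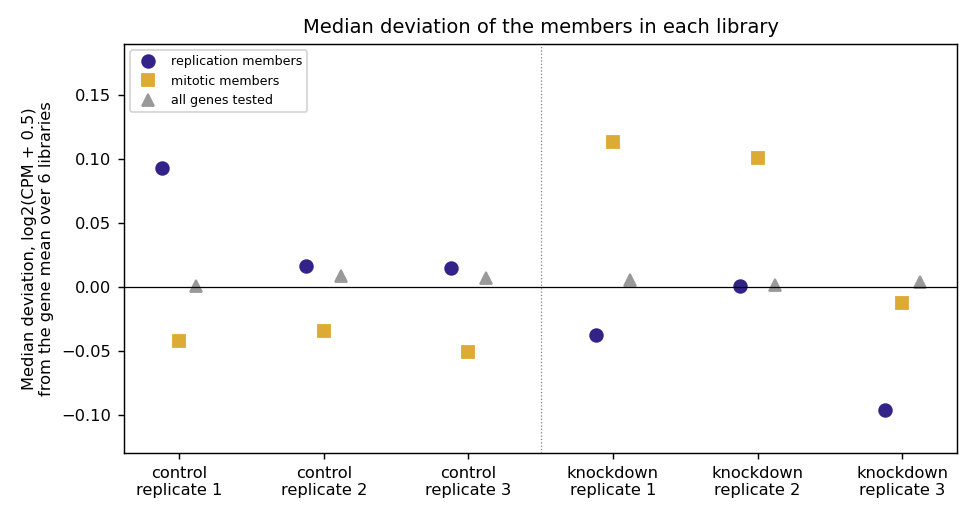
Median deviation of log2(CPM + 0.5) from each gene's mean over the 6 libraries, for the 19 replication members, the 30 mitotic members and all 13445 genes tested. Mitotic members are at 0.11 and 0.10 in knockdown replicates 1 and 2 and at -0.01 in replicate 3, and replication members run from 0.09 in control replicate 1 to -0.10 in knockdown replicate 3.

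Levels differed widely among the members. Per kilobase of merged exons, PCNA was highest in the control at 26.3 CPM per kb, then TOP2A at 25.2, ANLN at 21.3, RRM1 at 15.1 and CCNB1 at 15.0. PCNA and TOP2A were neighbours in this order, and the difference between them was not tested. The lowest were E2F8 at 0.300, CDT1 and FOXM1 at 1.15, GINS2 at 1.25 and CCNE2 at 1.31 CPM per kb. The replication members with the most negative fold changes, CCNE2, CDT1, CCNE1 and GINS2, were thus lowly expressed, with standard errors of 0.24 to 0.49 on the log2 scale. The standard error of GINS2 lay below counting error alone and is too small. Some counts are also uncertain by position, and whether the counting used strand is not stated. In GENCODE 29, exons of other genes on the same strand cover 62.2% of the merged exons of NUSAP1, 20.2% of RRM2 and 10.2% of BUB1B. On the opposite strand the largest shares are 46.6% of TYMS, 37.1% of CCNE2 and 23.6% of MCM2. Pseudogenes named after a member number 4 for UBE2C, 3 each for RRM2 and PCNA, and 2 each for AURKA and TYMS. The effect of these copies on the counts was not tested. KIF20A shares 5.05% with genes on the opposite strand and BIRC5 none.

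Other replication genes, from a list of 49 such as origin recognition, polymerase and clamp loader subunits, gave no call either. Of 47 tested, none passed with edgeR or DESeq2, 1 was higher and 1 lower at an unadjusted p under 0.05, and 20 were positive and 27 negative. Their median log2 fold change was -0.07, with a range from -0.51 to 0.49. Tested among the genes of the authors' table alone, 1 passed. The summed level of the list was 628 to 697 CPM in the control and 629 to 636 in the knockdown, with overlap.

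Of 68 other mitotic genes, such as condensin subunits, centromere proteins and further kinesins, 64 were tested. BUB3 was lower (1.56% of those tested, where 4.31% of all genes were called lower) and none was higher. The median log2 fold change was 0.11, and 40 of 64 were positive. BUB3, which carries the checkpoint kinases to kinetochores, fell from 83.6 ± 1.73 to 67.6 ± 0.879 CPM (SD, n = 3 per group; log2 fold change -0.31, SE 0.06, edgeR adjusted p = 0.0320). Its call was lost with DESeq2 (adjusted p = 0.0599) and without any 1 library, with adjusted p from 0.0872 to 0.103. KIF15, a spindle kinesin that backs up KIF11, was at 12.8, 11.9 and 11.1 CPM and at 18.2, 18.3 and 15.3 and missed the threshold (log2 fold change 0.53, edgeR adjusted p = 0.0555).

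Among 20 genes related to E2F, DREAM and NF-Y, 19 were in the files and 18 were tested. RBL2 was the single gene called (5.56%, where 3.90% of all genes were called higher). RBL2 encodes p130, the retinoblastoma relative that anchors DREAM in resting cells, and was at 39.2, 30.4 and 39.9 CPM in the control and 52.2, 52.8 and 53.0 in the knockdown. It rose 1.44-fold (log2 fold change 0.53, SE 0.11, edgeR adjusted p = 0.0376), with adjusted p from 0.0541 to 0.106 when any 1 library was left out. The MuvB subunit LIN9 was at 6.38 and 4.17 CPM on average and did not pass (edgeR adjusted p = 0.161).

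Of 19 inhibitors of cyclin-dependent kinases, checkpoint kinases and ubiquitin ligase subunits, 18 were tested, 2 fell and none rose. The 2 are 11.1% of those tested, where 4.31% of all genes were called lower. CDKN1A, p21, a p53 target that stops the cycle, was at 160, 172 and 185 CPM in the control and 130, 125 and 124 in the knockdown. It fell by 0.45 on the log2 scale (SE 0.08, edgeR adjusted p = 0.0178), and its call held without control replicate 1 and was lost without any other library, with adjusted p from 0.0547 to 0.0730. CDC27, a subunit of the anaphase promoting complex, fell from 124 ± 6.28 to 94.2 ± 4.14 CPM (SD, n = 3 per group; edgeR adjusted p = 0.0220) and was lost without any 1 library, with adjusted p from 0.0603 to 0.0843. CDKN1C, p57, another inhibitor, was at 3.32, 1.60 and 1.32 CPM and at 5.74, 5.65 and 6.96 (log2 fold change 1.46, edgeR adjusted p = 0.0517, DESeq2 adjusted p = 0.0172).

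Replication-dependent histone genes are transcribed in S phase, and their messages lack a poly(A) tail; depletion of ribosomal RNA, used here, does not itself remove them, and the primer of the first strand is not stated. Of 34 in the files, 29 were tested, and edgeR called H1-1 lower (3.45%, where 4.31% of all genes were called lower) and none higher. H1-1, a linker histone, was at 16.5, 17.4 and 19.0 CPM in the control and 12.1, 12.4 and 12.9 in the knockdown (log2 fold change -0.50, SE 0.11, edgeR adjusted p = 0.0453), and its call was lost without any 1 library (adjusted p from 0.0965 to 0.122). It was also lost with DESeq2 (adjusted p = 0.197), limma-voom (0.0507), upper-quartile scaling (0.0529) and no filter (0.0861). DESeq2 called H1-3 and H4C11 instead, both higher in the knockdown. H1-3, another linker histone, was at 85.0 ± 4.81 and 107 ± 6.84 CPM (SD, n = 3 per group; DESeq2 adjusted p = 0.0241, edgeR adjusted p = 0.0523), and H4C11, a core histone H4 gene, at 30.7 ± 7.13 and 49.1 ± 13.4 CPM (SD, n = 3 per group; DESeq2 adjusted p = 0.00982, edgeR adjusted p = 0.139). The tools thus called different genes, while the fold changes of H1-1, H1-3 and H4C11 kept their signs. H1-1 was at -0.50 on the log2 scale in DESeq2 as well, and in edgeR H1-3 was at 0.34 and H4C11 at 0.67. The summed level of the 34 was 1765 to 2071 CPM in the control and 1977 to 2101 in the knockdown, so that the groups overlapped. The median log2 fold change of the 29 was 0.08.

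**Figure D4:**
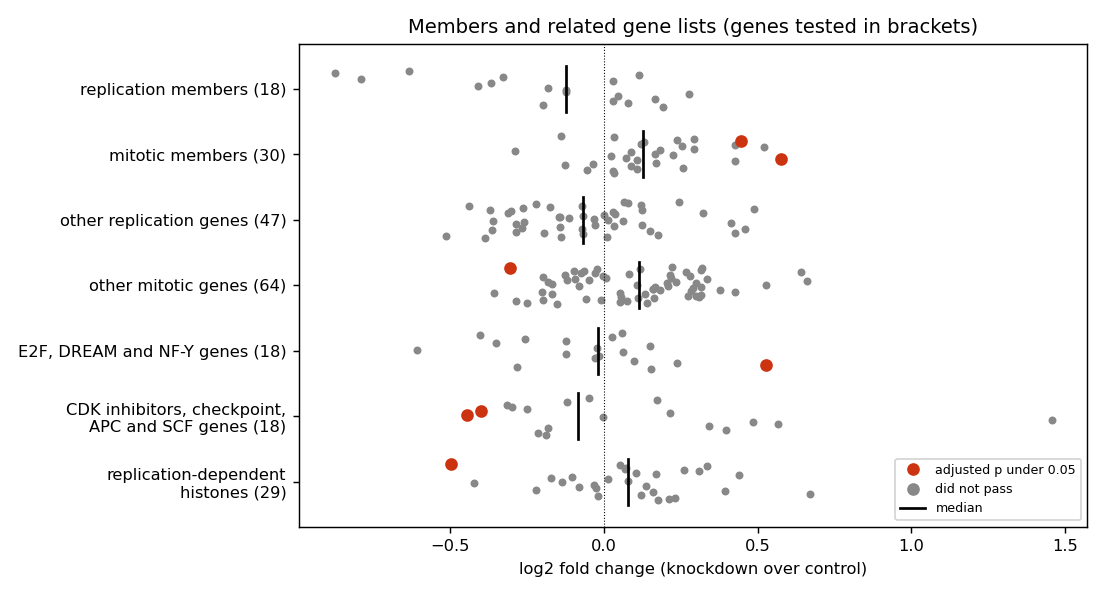
Log2 fold change, knockdown over control, of each tested gene of the members and of 5 related lists, with the median of each list as a bar and genes past an edgeR adjusted p of 0.05 in red. The medians of all 7 sets lie between -0.12 and 0.13.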

How the data were processed

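Total RNA of 6 libraries was depleted of ribosomal RNA and made into libraries that mark the second strand with dUTP, sequenced together in the same lane, per the labels' protocols. The authors deposited raw counts per Ensembl gene, made with CASAVA 1.7, GSNAP and HTSeq on hg19, per the submitters' processing notes; which annotation and which strand setting HTSeq used is not stated in the labels. Lines that name no gene, 86.3% to 88.1% of the reads listed, stayed out of library sizes and tests. The authors' deposited table, made with DESeq 1.10.1 per the same notes, holds mean signal (counts over size factors), a ratio, its log2 and p-values for 11638 genes.

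Genes were filtered with filterByExpr (minimum count 10), TMM-scaled, and compared by the quasi-likelihood test (glmQLFit, glmQLFTest) of edgeR 4.0.16 (R 4.3.3), with group as the only term and Benjamini-Hochberg adjustment over 13445 genes. The SE is the fold change over the root of F. For members with few reads, such as E2F1, GINS2 and AURKB, it lay below the error of counting alone and is too small. CPM is per 1000000 reads of the TMM-scaled library. DESeq2 1.42.0, limma 3.58.1, other scalings and filters, a replicate block and leaving out each library were alternatives. Symbols and exon lengths came from the reference tables and GENCODE 29, promoter windows from RefSeq. The members, lists and tests were chosen with earlier results of these data known. Genes called in each related list are named; 1 gene of the list of other replication genes is not reported here and was left out of that list, though not of the fit. Values in every library are given for members called by edgeR, DESeq2 or the authors. They are also given for the 5 of each role with the largest fold change and for E2F8. The same holds for MKI67, TOP2A, PCNA, CCNB1, CDK1, E2F1 and FOXM1. Per-library values of RRM2, MCM4, MCM5, CDC6, TYMS, KIF15 and CDKN1C were added after their values were seen. Group means of LIN9, H1-3 and H4C11 were added likewise. Simulated counts of this comparison (13200 genes run) held 84, 54 and 62 genes changed by 0.5, 1 and 2 on the log2 scale. Of these, edgeR recovered 2.38%, 31.5% and 91.9%, with 3 of 79 calls false. The data gave 1104 calls, so the adjusted threshold was stricter in the simulation. Recovery was not split by expression level either. Changes of the size seen in the members can be missed, and how often was not measured.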

Additional observations from a re-analysis of the deposited data

How the results depend on the processing

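MACROH2A1 kept its direction and call in all 15 alternatives (log2 fold change -1.16 to -1.07), and no member was called lower in any of them. Members called higher numbered 2 in the reported fit, 1 with DESeq2, without a filter and with at least 20 counts in total, 0 with the replicate block, 0 to 1 without 1 library, and 3, with CCNA2 added, among the genes of the authors' table and at an adjusted p under 0.10. All genes called numbered 2060 among the genes of the authors' table, 1881 at an adjusted p under 0.10, 416 with the replicate block and 427 to 564 without 1 library. Calls among other replication genes, other mitotic genes, E2F and DREAM genes, inhibitors and histones, 0, 1, 1, 2 and 1 as reported, were 0 in each with the replicate block and ranged without 1 library over 0, 0, 0, 0 to 2 and 0. Among genes of the authors' table they were 1, 3, 1, 4 and 6. Without a filter, 0 other mitotic genes were called. Upper-quartile scaling gave 2 other mitotic genes, limma-voom 4 inhibitors, DESeq2 0 other mitotic genes and 2 histones (H1-3 and H4C11, both higher, and not H1-1), and an adjusted p under 0.10 gave 3 other mitotic genes, 5 inhibitors and 2 histones. The cause of these shifts was not tested.

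The median log2 fold change of replication members ran from -0.15 to -0.047 without 1 library and that of mitotic members from 0.093 to 0.18; neither changed sign in any alternative. TYMS ran from -0.19 (without knockdown replicate 2) to 0.40, and TPX2 from -0.14 to 0.070 (without control replicate 2). Deviations from the group mean correlated at -0.026, -0.019 and -0.17 between same-numbered libraries, and from -0.14 to 0.17 between libraries of unlike number. With 3 libraries per group, these values cannot show whether same-numbered libraries shared a culture or an infection. Depth limits the low members: CDT1 and CCNE2 had 3 and 4 counts in knockdown replicate 3.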
